A study of Homo sapiens with 2 samples.

Results

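The SMC cohesin and condensin family was followed here as 9 genes, out of 11057 named genes with a value on at least 1 array. They are the SMC genes SMC1A, SMC2, SMC3, SMC4, SMC5 and SMC6 and the cohesin subunit genes RAD21, STAG1 and STAG2. They were chosen by the gene symbol of the probe, older names included, so that CSPG6 was read as SMC3 and SMC1L1 as SMC1A. All 9 had 1 probe each and a value on both arrays, and no member was lost to a filter. The set was proposed with the values on these arrays already known, so its values are given as a description.

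The cells were 293T, an established human embryonic kidney line, exposed for 6 h or 3 h to 10 µM Y27632, which blocks the kinases ROCK1 and ROCK2. Each exposure was hybridised on 1 dual-colour array, with the treated RNA in Cy3 and RNA of untreated 293T cells, given a time of 0 h, in Cy5. The array titles name a time and call the arrays control, so which channel was treated was taken from the source name and agent of the Cy3 channel. No array had its dyes exchanged, and the labels leave unsaid whether 1 preparation of untreated RNA served both arrays and whether the untreated cells received a vehicle. Effects of the inhibitor, of time in culture, of handling and of the dye cannot be told apart, and no p-value can be given.

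The deposited value is 1 log ratio of the channels per probe, read in base 2. Its numerator is not stated in the sources used here, so a positive value stands for a higher transcript level under Y27632 only if treated is over untreated, and for a lower one otherwise. The signs given are the deposited ones, and none is called a rise or a fall. A ratio carries no level, so neither the abundance of a transcript nor the kidney origin of the line could be checked against markers. Named genes had a median of 0.02 on each array, with an SD across genes of 0.36 on both. The 572 genes with several probes gave a within-gene SD over probes, which was 0.33 on the 6 h array and 0.31 on the 3 h array. A member's value has no other error than this one, which covers differences between probes and not between cultures.

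SMC proteins are long coiled-coil ATPases that work in pairs and form rings around DNA. SMC1A and SMC3 form cohesin, which RAD21 closes and which carries either STAG1 or STAG2. Cohesin holds sister chromatids together from replication until anaphase and extrudes the chromatin loops that stop at CTCF sites. SMC2 and SMC4 form condensin, which compacts chromosomes for mitosis, and SMC5 and SMC6 form a complex that handles recombination and replication intermediates. Dividing cells such as 293T use all of these complexes in each cell cycle.

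Within cohesin the members differed in value, and the upstream DNA of 2 pairs is shown for that reason. SMC3 and SMC1A are partners in one dimer, and STAG2 and STAG1 are paralogs that take the same place in cohesin. In each pair the first had a log ratio past 1.5-fold on both arrays and the second lay near 0 at 6 h. The 250 bases upstream of the annotated start farthest 5′ in the RefSeq table of build GRCh38.p14 are given 5′ to 3′ on the gene's strand. Capitals mark letters of the NF-Y box CCAAT, the cell cycle homology region (CHR) TTTGAA, the 4 E2F spellings TTTCCCGC, TTTCGCGC, TTTGCCGC and TTTGGCGC, and the YY1 core ATGGCG, on either strand.
SMC3 (GRCh38.p14, chr10:110567445-110567694, plus strand): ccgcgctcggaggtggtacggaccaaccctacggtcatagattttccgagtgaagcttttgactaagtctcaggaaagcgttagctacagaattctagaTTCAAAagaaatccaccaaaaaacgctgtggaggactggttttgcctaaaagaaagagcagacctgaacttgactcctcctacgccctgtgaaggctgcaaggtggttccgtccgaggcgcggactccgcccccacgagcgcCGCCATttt
SMC1A (GRCh38.p14, chrX:53422729-53422978, minus strand): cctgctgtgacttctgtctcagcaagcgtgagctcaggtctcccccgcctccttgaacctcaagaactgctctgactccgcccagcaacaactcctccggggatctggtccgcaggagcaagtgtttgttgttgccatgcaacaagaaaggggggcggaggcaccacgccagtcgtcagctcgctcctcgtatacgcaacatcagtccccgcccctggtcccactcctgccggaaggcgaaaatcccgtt
STAG2 (GRCh38.p14, chrX:123960310-123960559, plus strand): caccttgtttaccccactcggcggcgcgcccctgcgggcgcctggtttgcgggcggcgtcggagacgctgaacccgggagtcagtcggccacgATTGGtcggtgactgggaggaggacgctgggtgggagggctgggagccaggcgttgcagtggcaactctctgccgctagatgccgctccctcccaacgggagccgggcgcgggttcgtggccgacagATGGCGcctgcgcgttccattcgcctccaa
STAG1 (GRCh38.p14, chr3:136752379-136752628, minus strand): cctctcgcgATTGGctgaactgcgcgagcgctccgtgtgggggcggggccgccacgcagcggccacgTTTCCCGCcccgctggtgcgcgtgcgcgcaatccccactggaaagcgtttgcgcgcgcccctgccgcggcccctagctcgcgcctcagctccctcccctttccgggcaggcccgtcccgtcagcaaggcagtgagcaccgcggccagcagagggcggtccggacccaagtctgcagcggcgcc

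Capitals stand in 3 of the 4 stretches. SMC3 holds a CHR match and a YY1 core match, STAG2 an NF-Y box and a YY1 core, STAG1 an NF-Y box and an E2F spelling, and SMC1A none of these in the window shown. NF-Y and CHR motifs are known from promoters of genes used in G2 and mitosis, E2F sites from genes used in G1 and S phase, and YY1 is a broadly expressed zinc finger factor. The match of letters says nothing about whether a factor binds.

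Of the 5 cohesin subunit genes, SMC3 and STAG2 had the highest log ratios, RAD21 lay between, and STAG1 and SMC1A lay near 0 at 6 h. SMC3, which carries the lysines acetylated when cohesion is established, had a log ratio of 0.88 at 6 h (1.84-fold) and 0.97 at 3 h (1.96-fold). These values lie above those of 98.9% and 99.4% of the named genes measured on both arrays. SMC1A, the ATPase that pairs with SMC3, had −0.06 at 6 h and 0.19 at 3 h. In RNA of whole cultures, a difference in the share of cells with a transcript and one in its amount per cell cannot be told apart. The gap of SMC3 over SMC1A was 0.94 at 6 h and 0.78 at 3 h. It exceeded on both arrays the SD of a difference between 2 probes of one gene, which was 0.47 at 6 h and 0.44 at 3 h. SMC3 and SMC1A were the highest and lowest members at 6 h. The set was proposed with these values known, so nothing is read from that excess. The within-gene SD, 0.33 at 6 h and 0.31 at 3 h, was also close to the SD of 0.36 across genes.

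RAD21, the kleisin that bridges the heads of the SMC pair and is cut by separase at anaphase, had 0.41 at 6 h and 0.38 at 3 h. It differed between the arrays by 0.03, and 87.5% and 87.0% of named genes had lower values. STAG2, the more abundant STAG protein in many dividing cells and a gene often mutated in cancers, had 0.72 at 6 h and 0.63 at 3 h. STAG1, its paralog, had 0.05 at 6 h and 0.16 at 3 h. The gap of STAG2 over STAG1 was 0.67 at 6 h and 0.47 at 3 h, above the SD of a difference between 2 probes at each time, and by little at 3 h. Nothing is read from this excess either, since the values were known when the set was proposed. The probe sequences were not used here, so whether these paralogs can cross-hybridise was not tested.

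The condensin ATPases were alike at 3 h and apart at 6 h. SMC2 had 0.84 at 6 h (1.79-fold) and 0.87 at 3 h (1.83-fold). SMC4, its partner, had 0.07 at 6 h and 0.62 at 3 h. SMC2 therefore stayed above 1.5-fold on both arrays, whereas SMC4 was past it on the 3 h array and close to 0 on the 6 h array. The gap of SMC2 over SMC4 was 0.77 at 6 h and 0.25 at 3 h, and the 3 h gap is within the SD of a difference between 2 probes.

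Both genes of the SMC5 and SMC6 pair lay within the within-gene SD of 0 on both arrays. SMC5 had −0.02 at 6 h and −0.03 at 3 h, and it was the 1 member below 0 on both arrays. SMC6 had 0.16 at 6 h and 0.24 at 3 h. The gap of SMC6 over SMC5 was 0.18 at 6 h and 0.27 at 3 h, both within the SD of a difference between 2 probes.

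**Figure D1:**
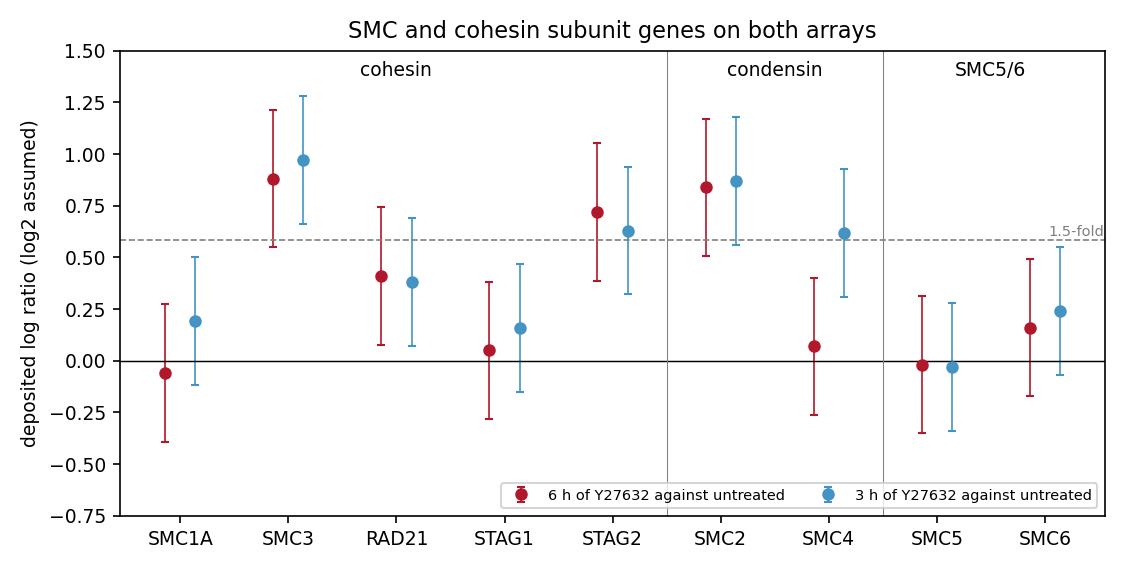
Deposited log ratio (vertical axis, base 2 assumed) of each of the 9 genes after 6 h (red, left) and 3 h (blue, right) of Y27632 against untreated 293T cells, 1 array per time. Bars are the within-gene SD over probes of other genes (0.33 at 6 h, 0.31 at 3 h) and the dashed line is 1.5-fold; SMC3, SMC2 and STAG2 lie above it on both arrays and SMC4 on the 3 h array.

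At 6 h, 3 of the 9 members were positive by 1.5-fold or more (SMC3, SMC2 and STAG2) and 0 were negative by as much. Over all named genes at 6 h, 5.63% were positive and 4.24% negative by that size. At 3 h, 4 of 9 were positive by 1.5-fold or more, SMC4 being the addition, and 0 were negative, against 4.88% and 4.49% of all named genes. The set was proposed with these values known, so nothing is read from the distance between its counts and these shares. At 2-fold 0 of 9 members passed on either array. Over all named genes, 0.7% were positive and 0.728% negative by that size at 6 h, and 0.657% were positive and 0.953% negative at 3 h. SMC3 came nearest to it, with 0.97 at 3 h against a limit of 1.

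By sign, 7 of 9 members were above 0 at 6 h and 8 of 9 at 3 h, where 51.5% and 51.3% of all named genes were. The median over the members was 0.16 at 6 h and 0.38 at 3 h, beside 0.02 for the median named gene at both times. Different members held this median, SMC6 at 6 h and RAD21 at 3 h. Taken gene by gene, the median difference of the members, 6 h minus 3 h, was −0.08. The lower median at 6 h does not mean that all members were lower then, since RAD21, STAG2 and SMC5 had the higher value at 6 h. In order at 6 h the members ran SMC3, SMC2, STAG2, RAD21, SMC6, SMC4, STAG1, SMC5 and SMC1A. At 3 h they ran SMC3, SMC2, STAG2, SMC4, RAD21, SMC6, SMC1A, STAG1 and SMC5. The widest gap between neighbours was 0.31 at 6 h, between STAG2 and RAD21, and 0.24 at 3 h. No neighbours in either order differed by more than the SD of a difference between 2 probes, so the order is not settled step by step.

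The arrays were also set against each other, which asks how the ratio to untreated cells differed between the exposures. The difference, 6 h minus 3 h, was −0.55 for SMC4, from 0.07 at 6 h and 0.62 at 3 h. This is a 1.46-fold difference, just short of 1.5-fold, and 3.09% of named genes had a lower one. SMC1A followed with −0.25, and the other 7 members differed by −0.11 to 0.09. No member was 1.5-fold apart in either direction, where 3.05% of all named genes were positive by that size and 2.7% negative. The difference had an SD of 0.29 across named genes and a within-gene SD over probes of 0.30, so SMC4 is the 1 member that lies beyond either. Exposure time and array cannot be told apart here. Both arrays may share untreated RNA, so like values of a member at both times are not independent repeats.

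**Figure D2:**
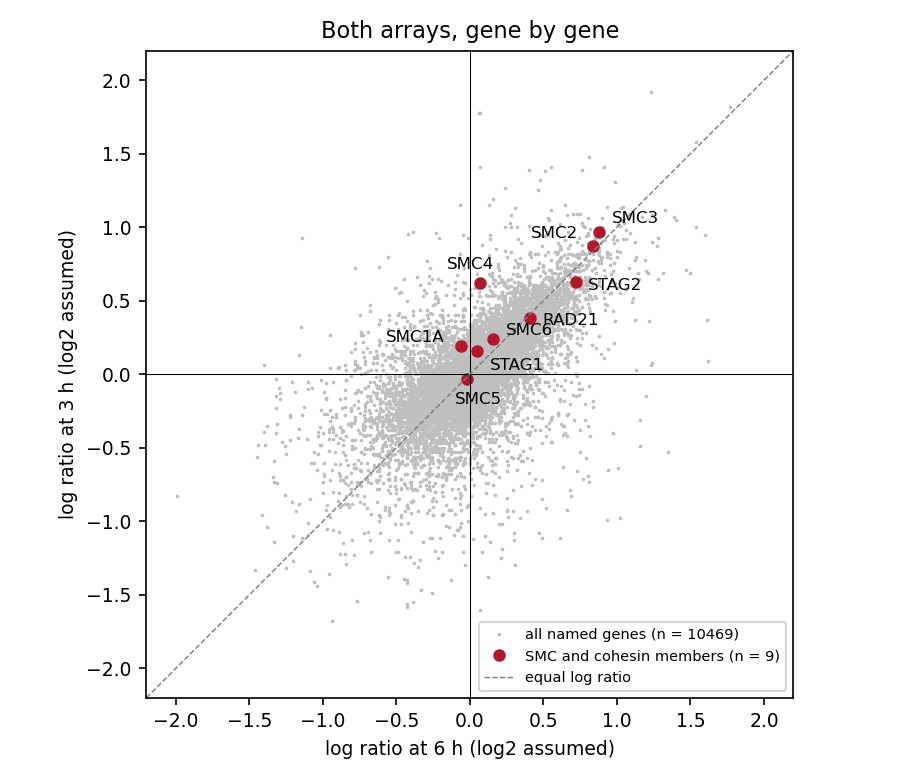
Log ratio at 6 h (horizontal axis) and at 3 h (vertical axis), base 2 assumed, for 10469 named genes (grey) and the 9 SMC and cohesin genes (red). SMC3, SMC2, STAG2 and RAD21 lie along the dashed line of equal values toward the upper right, and SMC4 (0.07 at 6 h, 0.62 at 3 h) lies above it.

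Genes that load, lock and release cohesin were read from a list of 12, of which 9 were measured. All 9 were above 0 at 6 h and 8 of 9 at 3 h, where 51.5% and 51.3% of all named genes were. Their medians were 0.18 at both times. Past 1.5-fold were ESCO1, SGO2 and PDS5B at 6 h and ESCO1 at 3 h, which is 3 of 9 and 1 of 9. Of all named genes, 5.63% and 4.88% were positive by that size at these times. ESCO1, an acetyltransferase of SMC3, had 0.79 at 6 h and 0.63 at 3 h. SGO2, a shugoshin that shields centromeric cohesin, had 0.72 at 6 h and 0.51 at 3 h. PDS5B, which sits on the cohesin ring and takes part in both its upkeep and its release, had 0.63 at 6 h and 0.51 at 3 h. These 3 genes had values near those of STAG2, whereas the insulator factor CTCF, at which cohesin stops, had 0.07 at 6 h and 0.17 at 3 h. MAU2, a subunit of the cohesin loader, averaged 0.02 at 6 h and −0.30 at 3 h over 2 probes. One probe had 0.18 at 6 h and −0.55 at 3 h and the other −0.14 and −0.05, so they differed in sign at 6 h.

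Of the genes of cohesin cleavage, ESPL1, which encodes separase, had −0.28 at 6 h and −0.17 at 3 h. PTTG1, which encodes the separase inhibitor securin, had 0.22 at 6 h and 0.28 at 3 h. The gene of the enzyme that cuts RAD21 had the opposite sign to RAD21 on both arrays, though its own values lay within the within-gene SD. Of the meiotic cohesin genes, REC8, a kleisin that takes the place of RAD21 in meiosis, had 0.59 at 6 h and 0.62 at 3 h. STAG3, the meiotic STAG, averaged 0.36 at 6 h and 0.17 at 3 h, but one of its 2 probes had 0.98 and 0.24 at these times and the other −0.25 and 0.10. A gap of that size between probes of one gene shows how far a member's single probe may stand from its gene.

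Among the non-SMC subunits of condensin, NCAPH, the kleisin of condensin I, was the 1 gene measured. It had 0.78 at 6 h and 0.64 at 3 h. It lay nearer to SMC2 than to SMC4 at 6 h, but nearer to SMC4 (0.62) than to SMC2 (0.87) at 3 h. The gaps between these genes at 3 h are all below 0.44, the SD of a difference between 2 probes. The 3 h values therefore do not place NCAPH with either. Of 7 SMC5/6 partner genes 3 were measured. NSMCE4A, the kleisin of that complex, averaged −0.13 at 6 h and 0.04 at 3 h over 2 probes, and SLF2, which takes part in bringing the complex to DNA lesions, had 0.36 at 6 h and −0.14 at 3 h. All 3 measured partners ranged from −0.13 to 0.43 at 6 h and from −0.14 to 0.08 at 3 h. Like SMC5 and SMC6, they stayed under 1.5-fold. TOP2B, a topoisomerase that works with cohesin and CTCF at loop anchors, had 0.23 at 6 h and 0.30 at 3 h.

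Over all 17 measured genes of cohesin regulation, meiotic cohesin, condensin and the SMC5/6 complex, 15 were above 0 at 6 h and 14 at 3 h, beside 51.5% and 51.3% of all named genes. Their medians were 0.25 and 0.17, beside 0.02 for all named genes. With symbols as the annotation lists them, 7 of the 17 genes were found and the medians were 0.13 and 0.18. At 1.5-fold or more, 5 of the 17 were positive at 6 h and 3 at 3 h, beside 5.63% and 4.88% of all named genes, and 0 were negative at either time. The lists were drawn up with earlier results of these arrays known, and these counts carry no test.

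Cell cycle genes are given beside the members because cohesin and condensin genes are used in S phase and mitosis. Of all named genes, 51.5% were above 0 at 6 h and 51.3% at 3 h. Of 20 measured G2/M genes, 16 were above 0 at 6 h and 16 at 3 h, with medians of 0.27 and 0.14. By 1.5-fold or more, 5 of these 20 were positive at 6 h and 3 at 3 h, beside 5.63% and 4.88% of all named genes. CDC25C, the phosphatase that activates CDK1, had 1.31 at 6 h and 0.69 at 3 h, and the checkpoint kinase gene TTK had 0.91 and 0.52 at these times. At the other end, the mitotic kinase gene PLK1 had −0.29 at 6 h and −0.11 at 3 h, and AURKB had −0.15 and −0.17. Of 15 G1/S genes, 9 were above 0 at 6 h and 13 at 3 h, beside the same shares of all named genes, with medians of 0.10 and 0.15. Positive by 1.5-fold or more were 0 of these 15 at 6 h and 1 at 3 h. SLBP, the histone mRNA binding protein gene, had 0.51 at 6 h and 0.61 at 3 h, and the cyclin gene CCNE2 had 0.54 and 0.37. TYMS, for thymidylate synthase, had −0.17 at 6 h and −0.25 at 3 h, and MCM2, for a subunit of the replicative helicase, had −0.14 and 0.01. The G2/M median was higher at 6 h than at 3 h, while the members' median was lower. Gene by gene, the median difference 6 h minus 3 h was 0.105 for the G2/M genes, 17 of 20 above 0. It was −0.08 for the members, 3 of 9 above 0, and −0.01 for all named genes, 4911 of 10469 above 0. The part of the cell cycle in the members' values was not tested.

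**Figure D3:**
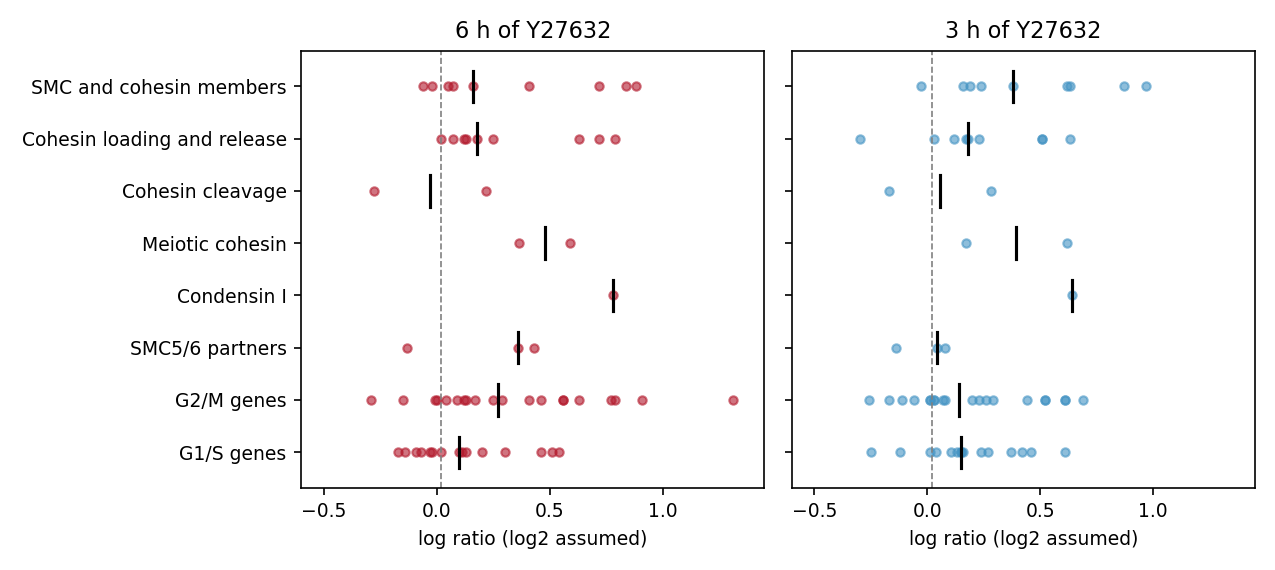
Log ratio (horizontal axes, base 2 assumed) of each measured gene by list at 6 h (left) and 3 h (right), with black ticks for list medians and the dashed line for the median named gene (0.02 at both times). The members spread from −0.06 to 0.88 at 6 h and from −0.03 to 0.97 at 3 h, and NCAPH, the 1 measured gene of condensin I, had 0.78 and 0.64.

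The genes outside all lists with values nearest to the members' medians were RO60, GAL and NAB1, within 0.0141 of them as a Euclidean distance over the 2 arrays. RO60 had 0.16 at 6 h and 0.38 at 3 h, the same as those medians. No member had that pair of values, since SMC6 had 0.16 at 6 h and 0.24 at 3 h and RAD21 had 0.41 and 0.38. As many as 274 genes lay within 0.1, so a likeness over 2 values singles out no gene.

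The probes of the members come from different identifier series of the array, 6 from H300, 2 from opHsV04 and 1 from H200. Named probes of these series had medians of 0.00, −0.02 and 0.04 at 6 h and −0.01, 0.01 and 0.03 at 3 h. The values of SMC3, SMC2 and STAG2 are many times these shifts, whereas those of SMC5 are of the same size.

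The RefSeq table held upstream windows for 8 of the 9 members, 13 windows in all, since SMC1A, SMC2 and SMC4 have 2 starts listed and STAG2 has 3. Windows of one gene can overlap and are not separate promoters. The motifs were picked after the sequences had been read and with the members' values known. The YY1 core ATGGCG was in the windows of SMC3, STAG2 and SMC4 and in 6.5% of 35116 windows of the same length over all genes. The CHR letters TTTGAA were in those of SMC3 and SMC4 and in 13.3% of all windows. The E2F spellings were in windows of SMC1A, STAG1, STAG2 and SMC6 and in 2.79% of all, and CCAAT in those of STAG1 and STAG2 and in 32.0% of all. The GC box GGGCGG was in windows of 7 of the 8 genes, SMC2 being the other, and in 42.6% of all windows. The percentages count single windows, whereas a gene with several starts has several windows. Counted by window, the YY1 core was in 3 of the 13 member windows and the CHR letters in 2. The E2F spellings were in 4 of the 13, CCAAT in 3 and the GC box in 10. SMC1A held its E2F match only at start 2, and STAG2 only at start 3. The YY1 core was only at start 1 in SMC4 and STAG2, as were the CHR letters in SMC4. In STAG1 a GC box match overlaps the E2F match. When the 50 bases past each start were searched too, STAG1 also held the YY1 core, which was then in 10.7% of all windows, and SMC2 also held the CHR letters, then in 15.2%.

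The 3 genes with a YY1 core upstream of a start were all past 1.5-fold at 3 h, and STAG2 and SMC3 also at 6 h. Among the members as a whole, 4 of 9 were past that size at 3 h and 3 of 9 at 6 h. Of all named genes, 4.88% and 5.63% were positive by as much at these times. STAG1, with its YY1 match at and past the start, was under 1.5-fold at both times. SMC2 was past it at both times with none of the 5 motifs upstream of either start. Members with an E2F spelling included STAG2 and also SMC1A, STAG1 and SMC6, which were all under 1.5-fold. The upstream GC content of the windows ran from 45.2% in SMC4 to 74.4% in STAG1, with a median of 58.0% over all windows, and SMC3 had 52.8%. These are descriptions of letters over few genes and were not tested. With the values known when the motifs were picked, nothing is read from which members hold them.

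**Figure D4:**
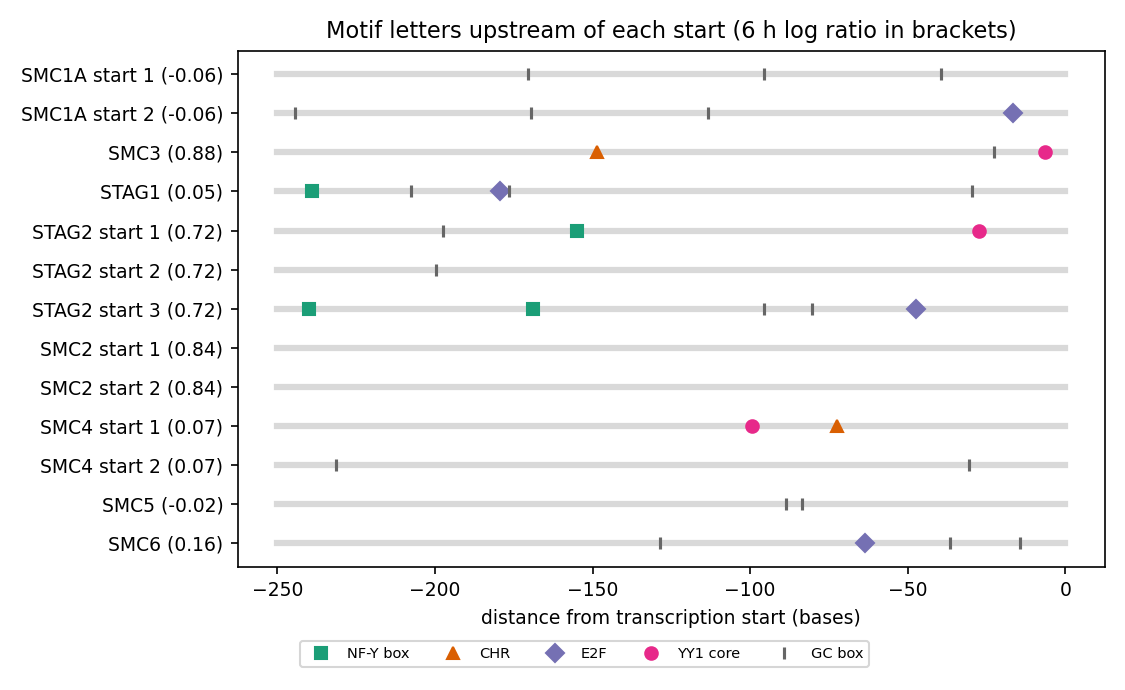
Position of motif matches on either strand in the 250 bases upstream of each listed start (horizontal axis, bases from the start) for 8 SMC and cohesin genes, with the gene's 6 h log ratio in brackets. YY1 core matches are in SMC3, STAG2 and SMC4, E2F matches in SMC1A, STAG1, STAG2 and SMC6, and the 2 windows of SMC2 hold none of the 5 motifs.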

How the data were processed

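Expression was measured on 2 dual-colour arrays. The authors deposited 1 log value per probe and array, taken here as a log2 ratio because an SD of 0.36 across genes would be implausibly large in base 10; its background correction, normalization, numerator and base were not given in the sources used, and 20337 of 24267 probes had a value at 6 h and 20503 at 3 h. The number of arrays limits the precision. The platform annotation named 1 gene for 13395 probes, more than 1 for 0 probes and no gene for 10872. RefSeq (GRCh38.p14) lists 10822 of these symbols as current, 2446 were replaced by the only gene with that synonym, and 127 ambiguous ones were kept. Probes of a gene were averaged with Python 3.11.15, pandas 2.3.3 and NumPy 2.4.6, and the summary code was tested on simulated data. Members, lists and alternatives were chosen with earlier results of these data known. Named were all members; of each cohesin, condensin, SMC5/6 and chromosome structure list, the genes at 1.5-fold or more on either array and the 2 nearest to 0 at 6 h; of the G2/M and G1/S lists, the 2 farthest on each side at 6 h; and the 3 genes nearest to the members' medians. Genes of the lists without a probe under their current symbol or without a value were not analysed here. CDK1 of the G2/M list was left out in this way, since its older symbol CDC2 was kept as listed. That gene had 0.15 at 6 h and −0.14 at 3 h.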

Additional observations from a re-analysis of the deposited data

Results flagged for a closer look

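In each gene given here the 6 h array had one sign and the 3 h array the other, and with 1 array per time the difference was not tested. Among the members this held for SMC1A, which had −0.06 at 6 h but 0.19 at 3 h and so differed by −0.25. Of the other genes, SLF2 (0.36 at 6 h, −0.14 at 3 h) differed by 0.50 and MAU2 (0.02 at 6 h, −0.30 at 3 h) by 0.32. NSMCE4A, with −0.13 at 6 h and 0.04 at 3 h, differed by −0.17, and MCM2, with −0.14 and 0.01, by −0.15. For NSMCE4A and MAU2 these are means of 2 probes. One probe of NSMCE4A was negative on both arrays, at −0.24 and −0.10, as was one of MAU2, at −0.14 and −0.05. The differences of SMC1A, NSMCE4A and MCM2 lay within the within-gene SD of 0.30 for this quantity, and that of SLF2 beyond it. The mean difference of MAU2 was also above 0.30, but its other probe had 0.18 at 6 h and −0.55 at 3 h. The 2 probes of MAU2 thus differed in the direction of the difference, so its mean does not stand for both.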

How the results depend on the processing

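The members' values, medians and counts and the median of the other cohesin, condensin and SMC5/6 genes were recomputed with the probe farthest from 0, the median over probes, centring on named genes, probes with both values, symbols as listed, equal SDs of the arrays and, chosen after seeing the data, probe series centred on their medians. The other lists, the likeness and the motifs were not recomputed under these settings. Since each member has 1 probe with both values, 4 of these 7 alternatives could not change a member, and the 3 that could are the centrings and the scaling. Under them the members' median ranged from 0.14 to 0.16 at 6 h and from 0.36 to 0.39 at 3 h, and the median difference from −0.09 to −0.08. The members past 1.5-fold stayed at 3 at 6 h and 4 at 3 h. At 2-fold there were 0 at 6 h and 0 at 3 h. The median of the 17 other genes ranged from 0.23 to 0.25 at 6 h and from 0.15 to 0.19 at 3 h, except with symbols as listed, where 7 of them were found and gave 0.13 and 0.18. If the values were natural logarithms, SMC3 would differ 2.41-fold at 6 h and 2.64-fold at 3 h. The folds of the other members would also be larger, so the counts at 1.5-fold and 2-fold hold for base 2 only. The log base, the direction of the ratio and spot brightness could not be settled. Each time has 1 array, so no array could be left out. No paired analysis was possible because the labels give no replicate numbers and each time has 1 array.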
